A study of Mus musculus with 11 samples.

Results

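The 10 genes described here encode the transforming growth factor beta (TGF-beta) ligands (Tgfb1, Tgfb2 and Tgfb3), their signalling receptors (Tgfbr1 and Tgfbr2), the latent TGF-beta binding proteins Ltbp1 and Ltbp4, the secreted matrix protein gene Tgfbi, and the CCN genes Ccn1 and Ccn2. They were taken by gene name from the 31280 genes of the deposited table, and all 10 were present. Liver RNA came from wild-type C57BL/6 mice. All were fed the MCD diet, which lacks methionine and choline, for 8 weeks. The diet lowers fat export from the liver and is used as a mouse model of steatohepatitis with fibrosis. The limonin group (6 samples) also received limonin, a triterpenoid of citrus fruit, by stomach tube at 100 mg/kg over 4 weeks, and the MCD group (5 samples) received water by the same route. Age and sex are not given in the sources used here. No healthy-diet mice enter the comparison, so each difference is limonin against water on the same diet.

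TGF-beta ligands are secreted as inactive complexes, in which the propeptide cages the ligand and a latent TGF-beta binding protein anchors it to matrix fibrils. Once released by integrins or proteases, the ligand binds the type II receptor (Tgfbr2), which recruits and phosphorylates the type I receptor (Tgfbr1), and this in turn phosphorylates Smad2 and Smad3. In the injured liver the pathway is known for driving hepatic stellate cells, the pericytes of the sinusoids, to make collagen. Ccn1 and Ccn2 encode matricellular proteins, and both genes are known targets of the YAP and TAZ co-activators with TEAD factors, while Ccn2 and Tgfbi are also known as TGF-beta-induced genes.

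Promoter sequences were found in RefSeq (GRCm38.p6) for 8 of the 10 genes, in 12 windows. The 250 bases before the annotated start are shown for Ccn1, Tgfb2, Tgfbi and Tgfb1, a CCN gene, a ligand with a TATA box, the induced matrix gene and the main ligand. Capitals mark matches on either strand to the TEAD element GGAATG, which on the opposite strand reads CATTCC, or to the short Smad element CAGAC, which on the opposite strand reads GTCTG, and matches to TATAAA on the strand shown. The windows are chr3:145649986-145650235 (minus strand) for Ccn1, chr1:186705990-186706239 (minus strand) for Tgfb2, chr13:56609336-56609585 (plus strand) for Tgfbi and chr7:25686752-25687001 (plus strand) for Tgfb1.
Ccn1: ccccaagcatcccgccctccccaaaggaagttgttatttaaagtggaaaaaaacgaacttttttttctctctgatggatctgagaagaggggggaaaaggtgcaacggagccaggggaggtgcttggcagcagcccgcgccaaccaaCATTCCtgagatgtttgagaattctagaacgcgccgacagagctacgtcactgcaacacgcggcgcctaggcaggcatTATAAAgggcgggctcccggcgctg
Tgfb2: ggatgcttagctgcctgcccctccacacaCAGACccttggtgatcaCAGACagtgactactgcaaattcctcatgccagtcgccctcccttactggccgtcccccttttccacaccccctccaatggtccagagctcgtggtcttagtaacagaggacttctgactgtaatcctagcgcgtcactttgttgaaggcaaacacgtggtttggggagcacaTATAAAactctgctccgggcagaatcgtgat
Tgfbi: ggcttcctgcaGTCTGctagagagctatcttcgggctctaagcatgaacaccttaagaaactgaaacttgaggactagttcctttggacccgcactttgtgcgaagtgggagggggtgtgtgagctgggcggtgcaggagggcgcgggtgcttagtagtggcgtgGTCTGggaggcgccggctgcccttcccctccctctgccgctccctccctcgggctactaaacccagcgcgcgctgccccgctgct
Tgfb1: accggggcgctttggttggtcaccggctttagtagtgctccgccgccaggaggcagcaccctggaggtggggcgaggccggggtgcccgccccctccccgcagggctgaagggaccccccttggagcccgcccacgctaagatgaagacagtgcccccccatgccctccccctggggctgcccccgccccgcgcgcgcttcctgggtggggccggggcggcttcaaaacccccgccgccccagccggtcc

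The Ccn1 window held the TEAD letters 1 time, with the first base at -103 from the start, and a TATA box at -25. The Tgfb2 window held a TATA box at -31 and the Smad letters 2 times, and the Tgfbi window held the Smad letters 2 times. Of 32851 windows of the same length over all genes, 12.6% held the TEAD letters, 42.2% the Smad letters and 7.59% TATAAA, so the Smad letters alone are common. None of the 12 windows held the AP-1 element TGANTCA (6.75% of all windows) or a CArG box (1.47%). These are matches of letters, with no measure of binding.

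Levels are in FPKM, fragments per kilobase of transcript scaled to the number of fragments in the library. From the steps between low FPKM values of genes with 1 transcript, an estimated 17400000 to 19800000 fragments stood behind each limonin library and 15500000 to 19000000 behind each MCD library. Summed FPKM ran from 404050 to 462665 in limonin and from 464184 to 471623 in MCD libraries, so every limonin sum was the lower. Alb, the hepatocyte marker albumin, was abundant in every library and averaged 25900 FPKM in limonin and 17800 FPKM in MCD livers. The labels give separate samples and group sizes without saying whether each sample was 1 mouse, so p-values measure the spread between these samples.

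Limonin livers carried less RNA of the ligands Tgfb1 and Tgfb3, of Ltbp4, of Tgfbi and of the CCN genes, while neither receptor passed the test. Of the 10 genes, 8 had at least 1 FPKM in at least 5 libraries and were tested, and 6 of them fell, namely Tgfb1, Tgfb3, Tgfbi, Ltbp4, Ccn1 and Ccn2. A gene was called where its limma p, adjusted by Benjamini-Hochberg over 10489 genes, was below 0.05. Over all tested genes 18.7% were called lower and 7.24% higher. Tgfb2 and Ltbp1 lay under the filter. In a fit of all genes with no filter, all 10 had a negative log2 fold change with a median of -0.79, against -0.01 over all genes. That fit called the same 6 lower, against 5.68% of all genes called lower and 1.32% called higher. Each of the 6 calls remained in every fit that left out 1 library.

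**Figure D1:**
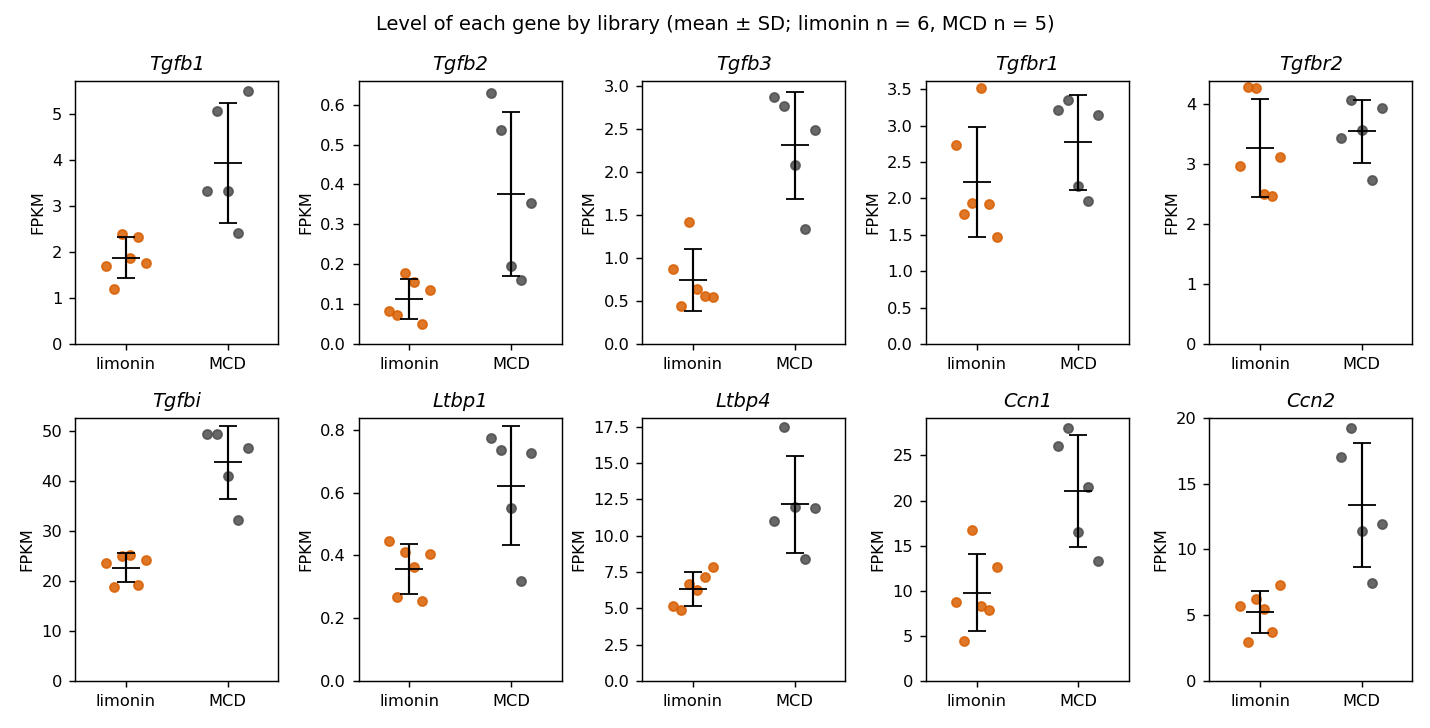
FPKM of each gene in each library, limonin (orange, n = 6) left of MCD (grey, n = 5), with the mean and SD as black bars; each panel has its own linear axis from 0. The groups do not overlap for Tgfb1, Tgfbi, Ltbp4 and Ccn2. They overlap for Tgfbr1 and Tgfbr2, although 4 limonin libraries lie below every MCD library for Tgfbr1.

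Among the ligands, Tgfb1 (chromosome 7, 25687002 to 25705077, GRCm38), the main ligand of fibrosis, had the highest level in both groups. It ran from 1.21 to 2.40 FPKM with a median of 1.82 in limonin livers, and was at 3.34, 5.08, 3.33, 2.42 and 5.51 FPKM in MCD 1 to 5. Every limonin library lay below every MCD library, although limonin 3 at 2.40 and MCD 4 at 2.42 were close. Tgfb1 averaged 1.88 ± 0.443 FPKM in limonin and 3.94 ± 1.3 FPKM in MCD livers (SD, n = 6 and 5), and its log2 fold change on the log2(FPKM + 1) scale was -0.75 ± 0.17 (SE, adjusted p = 0.00702). The pseudocount of 1 shrinks the change of genes near 1 FPKM, and the ratio of the group means was 0.478.

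Tgfb3 (chromosome 12, 86056745 to 86079041) showed the larger relative difference. It ran from 0.442 to 1.42 FPKM in limonin livers with a median of 0.601, and was at 2.87, 2.77, 2.09, 1.34 and 2.49 FPKM in MCD 1 to 5. Limonin 3, the highest of its group, lay above MCD 4, the lowest of the other, and the remaining 5 limonin libraries lay below every MCD library. The means were 0.746 ± 0.359 FPKM in limonin and 2.31 ± 0.621 FPKM in MCD livers, a ratio of 0.322, with a log2 fold change of -0.92 ± 0.16 (adjusted p = 0.00218). Tgfb3 reached 1 FPKM in 1 limonin and 5 MCD libraries, so it met the filter through the MCD livers. With a filter on the mean over all 11 libraries its adjusted p was 0.00237. The gene has 1 annotated transcript, and its values correspond to about 28 to 95 fragments per limonin library and 87 to 181 per MCD library.

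Tgfb2 (chromosome 1, 186622792 to 186705989) was the lowest of the 10 genes in both groups. It ran from 0.0503 to 0.178 FPKM in limonin livers with a median of 0.109, and was at 0.630, 0.536, 0.197, 0.161 and 0.354 FPKM in MCD 1 to 5, so that limonin 3 again lay above MCD 4. Taking its 5116-base transcript as the length, this was an estimated 4 to 18 fragments per limonin library and 16 to 60 per MCD library. The ratio of means was 0.301. In the unfiltered fit its log2 fold change was -0.29 ± 0.09 (adjusted p = 0.0694), so it was not called with a pseudocount of 1. With smaller pseudocounts of 0.1 and 0.01, chosen after its values were seen, the log2 fold change was -1.08 and -1.58, with adjusted p of 0.0435 and 0.0427. An exact permutation test of log2 FPKM with no pseudocount gave a difference of -1.68 (two-sided p = 0.00649, not adjusted).

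Neither receptor gene passed the test. Tgfbr1 (chromosome 4, 47353222 to 47414931), the type I receptor kinase, ran from 1.47 to 3.51 FPKM in limonin livers with a median of 1.93, and was at 3.21, 3.35, 2.17, 1.97 and 3.15 FPKM in MCD livers. Its highest value was in limonin 4, above every MCD library, while 4 of the 6 limonin libraries lay below every MCD library. Tgfbr2 (chromosome 9, 116084293 to 116175360), the type II receptor, ran from 2.47 to 4.29 FPKM in limonin livers with a median of 3.04, and was at 3.43, 4.06, 3.56, 2.74 and 3.93 FPKM in MCD livers. Limonin 2 and 3 held the highest Tgfbr2 values of all 11 libraries. The log2 fold changes were -0.23 ± 0.16 for Tgfbr1 (adjusted p = 0.293) and -0.10 ± 0.13 for Tgfbr2 (adjusted p = 0.598). These p-values do not show that the receptors were equal between the groups.

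Tgfb1 and each receptor were compared as a ratio within each library. The log2 ratio of Tgfb1 to Tgfbr2 (FPKM + 1 each) averaged -0.56 ± 0.41 in limonin and 0.09 ± 0.23 in MCD livers (SD), a difference of -0.65 (exact permutation over 462 splits, two-sided p = 0.0108, 0.0216 adjusted over 2 ratios). For Tgfb1 to Tgfbr1 the means were -0.15 ± 0.38 in limonin and 0.37 ± 0.24 in MCD livers, a difference of -0.52 (exact permutation, p = 0.0390, adjusted p = 0.0390). Tgfb1 was thus lower relative to Tgfbr2 in limonin livers, with 5 of 6 libraries below every MCD library. Both ratios were added after the values were seen, and with pseudocounts of 0.1 and 0.01 the difference for Tgfbr2 was -0.86 and -0.89. Without MCD 2 or MCD 5 the adjusted exact permutation p for Tgfbr2 was 0.0571. For Tgfbr1 it ran from 0.0619 to 0.0714 without limonin 1, limonin 2, limonin 4, MCD 2, MCD 3 or MCD 5.

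Ltbp4 (chromosome 7, 27305136 to 27337692), which anchors latent TGF-beta and is needed for elastic fibre assembly, was the more abundant of the binding proteins. It ran from 4.88 to 7.84 FPKM in limonin livers with a median of 6.49, and was at 11, 17.5, 12.0, 8.37 and 11.9 FPKM in MCD 1 to 5. The groups did not overlap. The means were 6.33 ± 1.15 FPKM in limonin and 12.2 ± 3.34 FPKM in MCD livers, a log2 fold change of -0.82 ± 0.16 (adjusted p = 0.00362). Ltbp1 (chromosome 17, 75005568 to 75392512), the other member of this family here, ran from 0.254 to 0.447 FPKM in limonin livers with a median of 0.384. In MCD 1 to 5 it was at 0.775, 0.736, 0.551, 0.320 and 0.726 FPKM, with MCD 4 inside the limonin range. It was not called in the unfiltered fit (-0.25 ± 0.09, adjusted p = 0.10). Without MCD 4 the adjusted p was 0.0229, and an exact permutation test of log2 FPKM gave a difference of -0.76 (two-sided p = 0.0303, not adjusted).

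Tgfbi (chromosome 13, 56609523 to 56639562), a secreted protein that links integrins to collagen fibrils, had the highest level of the 10 genes and the least spread in limonin livers. It ran from 18.8 to 25.2 FPKM there with a median of 23.9, and was at 49.3, 49.4, 40.9, 32.1 and 46.6 FPKM in MCD 1 to 5. The gap between the highest limonin and the lowest MCD library was wide relative to the limonin spread, whose coefficient of variation was 12.7%, against 16.8% in MCD livers. The means were 22.6 ± 2.88 FPKM in limonin and 43.7 ± 7.34 FPKM in MCD livers, a log2 fold change of -0.91 ± 0.13 (adjusted p = 0.00120).

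Ccn2 (chromosome 10, 24595442 to 24598683), also known as connective tissue growth factor, ran from 2.99 to 7.32 FPKM in limonin livers with a median of 5.58, and was at 17.0, 19.2, 11.4, 7.41 and 11.9 FPKM in MCD 1 to 5. Limonin 6 at 7.32 and MCD 4 at 7.41 nearly met, and the groups did not overlap. Means of 5.23 ± 1.61 FPKM in limonin and 13.4 ± 4.69 FPKM in MCD livers gave a log2 fold change of -1.18 ± 0.23 (adjusted p = 0.00497).

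Ccn1 (chromosome 3, 145646976 to 145649981), an immediate early gene whose promoter carries the TEAD letters printed above, was more variable than Ccn2 among limonin livers, with a coefficient of variation of 43.9%, against 30.8% for Ccn2, and less so among MCD livers, with 29.5%, against 35.1% for Ccn2. It ran from 4.43 to 16.7 FPKM in limonin livers with a median of 8.49, and was at 26.1, 28.0, 16.5, 21.5 and 13.3 FPKM in MCD 1 to 5. Limonin 3 lay above MCD 3 and MCD 5, and the remaining 5 limonin libraries lay below every MCD library. The means were 9.76 ± 4.29 FPKM in limonin and 21.1 ± 6.22 FPKM in MCD livers, a log2 fold change of -1.08 ± 0.28 (adjusted p = 0.0162). The adjusted p reached at most 0.0495 when 1 library was left out. The gene has 1 annotated transcript, and the values correspond to about 171 to 669 fragments per limonin library and 494 to 1078 per MCD library.

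**Figure D2:**
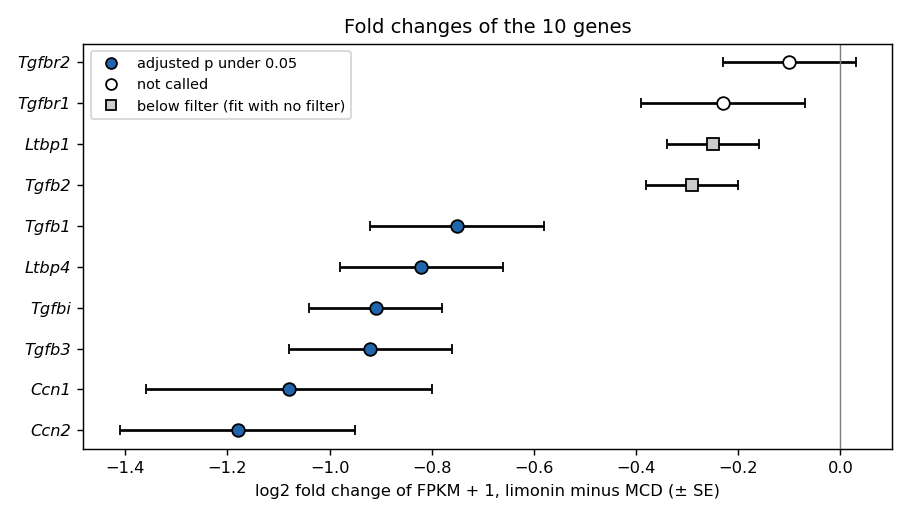
Log2 fold change of FPKM + 1, limonin minus MCD, with its SE for each of the 10 genes. Blue points passed the adjusted p threshold of 0.05, open points did not, and grey squares are Tgfb2 and Ltbp1 from the fit with no filter; Ccn2 at -1.18 lies farthest from 0 and Tgfbr2 at -0.10 nearest. With a pseudocount of 0.1 Tgfb3 (-1.56) was farther from 0 than Ccn2 (-1.32).

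In 4 of the 8 tested genes (Tgfb1, Tgfbi, Ltbp4 and Ccn2) the highest limonin value was under the lowest MCD value, which held for 8.33% of all tested genes, and the opposite for 2.97%. In the authors' deposited table, 8 of the 10 genes were marked as lower at a q under 0.05 with at least a 1.5-fold change, against 6.92% of all 31280 genes. These were the 6 genes above with Tgfb2 (q = 0.00126) and Ltbp1 (q = 0.0257). Their deposited log2 ratios, which carry no pseudocount of 1, ran from -0.80 for Ltbp1 to -1.73 for Tgfb2.

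The order of the levels differed little between the groups. Since FPKM is per length, levels can be set side by side. In limonin livers the means ran Tgfbi (22.6 FPKM), Ccn1 (9.76), Ltbp4 (6.33), Ccn2 (5.23), Tgfbr2 (3.27), Tgfbr1 (2.23), Tgfb1 (1.88), Tgfb3 (0.746), Ltbp1 (0.358) and Tgfb2 (0.113). In MCD livers Tgfbi (43.7 FPKM) and Ccn1 (21.1) again led, followed by Ccn2 (13.4), Ltbp4 (12.2), Tgfb1 (3.94), Tgfbr2 (3.54), Tgfbr1 (2.77), Tgfb3 (2.31), Ltbp1 (0.622) and Tgfb2 (0.376). The mean of Tgfb1 stood below those of both receptors in limonin livers and above both in MCD livers, but single libraries did not follow this order, since Tgfb1 was below Tgfbr1 in 3 of 6 limonin libraries and above Tgfbr2 in 2 of 5 MCD libraries. Of neighbours in the limonin order, only Tgfbi and Ccn1, and Ltbp1 and Tgfb2, had ranges that did not overlap. In the MCD order this held for Tgfbi and Ccn1, for Ltbp4 and Tgfb1, and for Tgfb3 and Ltbp1.

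Single libraries stood at the edge of their group for many of the genes. MCD 4 was the lowest MCD library for 9 of the 10 genes, the exception being Ccn1, where MCD 5 was lowest. MCD 2 was the highest MCD library for 6 genes. Among limonin libraries, limonin 2 was the lowest for 6 genes and limonin 3 the highest for 4. After the group mean was subtracted from log2(FPKM + 1), Pearson's r over the 11 libraries had a median of 0.51 over the 45 pairs of the 10 genes and ran from -0.12 (Tgfbr1 and Tgfbr2) to 0.94 (Tgfbi and Ltbp1). The closest pairs joined Tgfbi, Ltbp1 and Ccn2, with r of 0.94 for Tgfbi and Ltbp1 and 0.92 for Tgfbi and Ccn2 (Spearman's rho 0.85 for each). Libraries share depth and cell make-up across genes, and the correlations are given as a description.

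**Figure D3:**
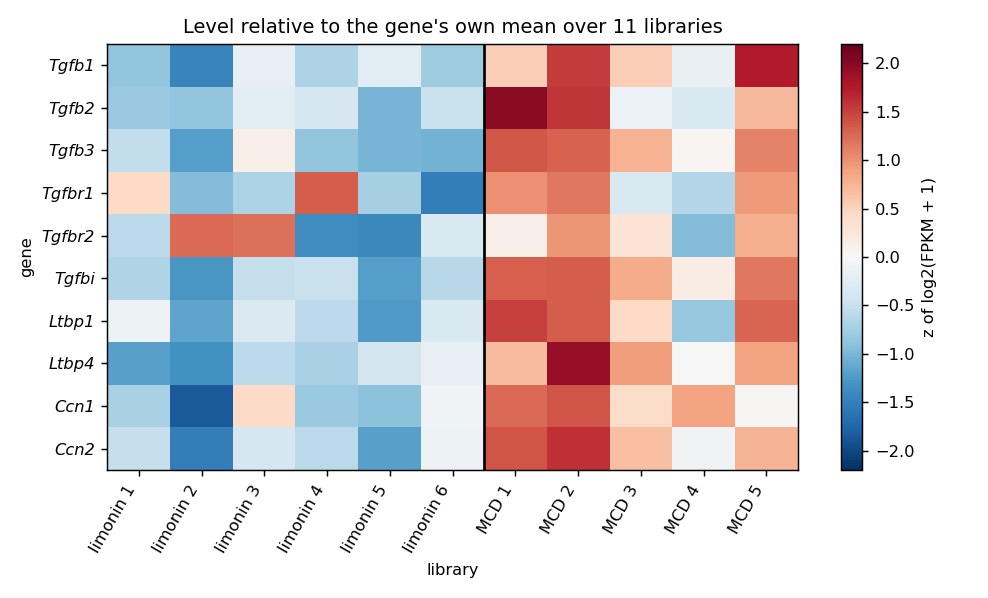
Level of each gene in each library as a z-score of log2(FPKM + 1) around the gene's own mean over 11 libraries, limonin libraries left of the line and MCD libraries right of it. Red is above and blue below the gene's mean. MCD 4 is the palest or bluest MCD column for 9 genes. The Tgfbr2 row does not follow the groups, and the Tgfbr1 row follows them only in part.

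The genes whose residual pattern over the 11 libraries was most like that of each called gene were found by the same measure. For Tgfb1 these were Vim (r = 0.96, rho = 0.93), which encodes the intermediate filament vimentin, Hcls1 (0.96, rho = 0.95), a cytoskeletal adaptor of blood cells, and Napsa (0.95, rho = 0.95), an aspartic protease. For Tgfb3 they were Glipr2 (0.99), Tagln2 (0.97) and Rhoc (0.97), the first a membrane protein gene and the others actin-binding and small GTPase genes. For Tgfbi they were Arrdc1 (0.95), Lhfp (0.95) and Frzb (0.94), a secreted Wnt antagonist. Ltbp4 was closest to Pkig (0.95), Sod3 (0.94), an extracellular superoxide dismutase, and Slc9a3r2 (0.92). Ccn2 was closest to Phldb1 (0.93), Arrdc1 (0.93) and Tsen15 (0.92), and Ccn1 to Cyth2 (0.93), Scrib (0.92) and Npm3 (0.91). Without the 2 libraries farthest from the median of the called gene, r stayed between 0.77 (Ccn1 and Npm3) and 0.96 (Tgfb3 and Glipr2). Of these genes Npm3 was not called between the groups (adjusted p = 0.145 by limma), and Arrdc1 is named for both Tgfbi and Ccn2.

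Ratios between related genes were compared within each library. The log2 ratio of Ccn2 to Ccn1 averaged -0.74 ± 0.32 in limonin and -0.64 ± 0.47 in MCD livers (difference -0.10, exact permutation p = 0.686, adjusted over 5 ratios 0.686). The ratio of Tgfb3 to Tgfb1 averaged -0.73 ± 0.23 in limonin and -0.56 ± 0.27 in MCD livers (difference -0.17, exact permutation p = 0.284, adjusted 0.473). The ratio of Tgfbr1 to Tgfbr2 averaged -0.41 ± 0.51 in limonin and -0.28 ± 0.17 in MCD livers (difference -0.13, exact permutation p = 0.600, adjusted 0.686). With a pseudocount of 1, none of these differences was larger than the spread between libraries. For the low genes the ratio depended on the pseudocount. Tgfb3 to Tgfb1 differed by -0.56 and -0.65 with pseudocounts of 0.1 and 0.01, so Tgfb3 was then lower relative to Tgfb1 by more. Neither difference was called (exact permutation, adjusted p = 0.206 and 0.162). Ltbp1 to Ltbp4 was higher by 0.57 in limonin livers (means -2.42 and -2.99 in limonin and MCD livers, exact permutation p = 0.00433, adjusted 0.0216), but by 0.28 and 0.18 with pseudocounts of 0.1 and 0.01 (adjusted 0.536 and 0.545). Tgfb2 to Tgfb1 differed by 0.46 with a pseudocount of 1 (exact permutation p = 0.0238, adjusted 0.0595), and by -0.08 and -0.55 with the smaller ones (adjusted 0.779 and 0.545).

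Genes that hold TGF-beta latent or release it were mostly lower where called. Of 19 listed genes of the latent complex and its activation, 11 were tested, 5 fell, 2 rose and 4 were not called, with a median log2 fold change of -0.30, against -0.07 over all tested genes. Emilin1, a matrix glycoprotein that inhibits processing of the TGF-beta precursor, averaged 5.18 ± 0.800 FPKM in limonin and 11.2 ± 2.47 FPKM in MCD livers (log2 fold change -0.96 ± 0.14). Nrros, which holds latent TGF-beta on macrophages and microglia, fell by 0.80 ± 0.14, and the gelatinase gene Mmp2 by 1.13 ± 0.21. Plg, the hepatocyte-made precursor of plasmin, rose by 0.78 ± 0.15, to 287 ± 73.2 FPKM in limonin livers, against 163 ± 19.1 FPKM in MCD livers. The other called genes, named after their values were seen, were Plau, a plasminogen activator (-1.09 ± 0.22), Lrrc32, which holds latent TGF-beta on regulatory T cells and platelets (-0.49 ± 0.13), and Furin, which cleaves the precursor (0.49 ± 0.15). The integrin genes Itgav (adjusted p = 0.203), Itgb1 (0.446) and Itgb5 (0.498) were not called by limma, and Itgb6, Itgb8 and Itgb3 were under 1 FPKM in every library. In the unfiltered limma fit Itgb6 was called lower, at 0.0161 FPKM in limonin and 0.171 FPKM in MCD livers (adjusted p = 0.0335). Itgb8 was also called lower there, at 0.0372 and 0.140 FPKM (adjusted p = 0.0437), and Itgb3 was not called (adjusted p = 0.988). These integrin genes were named after their values were seen. The 5 of 11 that fell were 45.5%, against 18.7% of all tested genes, and the 2 that rose were 18.2%, against 7.24%. Genes called lower numbered 5 in each fit without 1 library, and genes called higher 1 without MCD 1 or MCD 2. With no filter 10 of the 19 were called lower and 1 higher.

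Co-receptors and regulators of the receptors were mostly not called. Of 15 listed, 13 were tested, 4 fell (30.8%, against 18.7% of all tested genes) and 9 were not called, with a median of 0.05. The 13 include Trap1, which encodes a mitochondrial chaperone and is no known regulator of these receptors. Trap1 was not called (adjusted p = 0.0595 by limma) and was named after its values were seen. With no filter 2 of the 15 were called lower. Bambi, a pseudoreceptor that blocks TGF-beta signalling and is itself induced by it, averaged 1.42 ± 0.295 FPKM in limonin and 2.67 ± 0.704 FPKM in MCD livers (-0.59 ± 0.13). Acvrl1, an endothelial type I receptor, fell by 0.48 ± 0.11, Fkbp1a, which keeps the type I receptor inactive, by 0.43 ± 0.12, and Eng, the endothelial co-receptor endoglin, by 0.43 ± 0.15. Acvrl1 ran from 0.611 to 1.02 FPKM in limonin and from 1.10 to 2.07 FPKM in MCD livers. It met the filter mainly through the MCD livers, and its adjusted p in the unfiltered fit was 0.0280 by limma. Tgfbr3, the co-receptor betaglycan, was at 1.5 ± 0.289 FPKM in limonin and 1.41 ± 0.456 FPKM in MCD livers and was not called (adjusted p = 0.734 by limma). Without MCD 2 or MCD 5, 2 were called lower. Without limonin 5 or limonin 6, 3 and 2 were called higher, and after median-ratio scaling of the libraries 3 were.

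The Smad genes moved in both directions. Of 19 listed Smads and co-regulators, 13 were tested, 4 rose, 4 fell and 5 were not called, with a median of -0.12. Each direction held 30.8% of those tested, against 7.24% called higher and 18.7% called lower over all tested genes. With no filter 2 were called higher and 1 lower. Hipk2, a kinase that binds Smad co-repressors, rose by 0.47 ± 0.09, and Ppm1a, a phosphatase of Smad2 and Smad3, rose by 0.32 ± 0.09. Snai1, a transcription factor induced by TGF-beta, fell by 0.58 ± 0.14, and Smad7, the inhibitory Smad induced by the pathway, fell to 3.02 ± 0.694 FPKM in limonin livers, against 4.41 ± 0.694 FPKM in MCD livers (-0.44 ± 0.13). Named after their values were seen, Smad2 (0.35 ± 0.11) and Smad9 (0.34 ± 0.10) rose, while Smad6 (-0.39 ± 0.12) and Tgif1 (-0.55 ± 0.17) fell. Smad3 and Smad4 were not called (adjusted p = 0.0794 and 0.607 by limma). Genes called lower numbered 1 without limonin 2, MCD 1 or MCD 2, and 2 without limonin 4 or after median-ratio scaling. Genes called higher numbered 2 without limonin 2, MCD 1 or MCD 2.

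Genes known to respond to TGF-beta fell in most tested cases. Of 32 listed, 23 were tested, 17 fell, 1 rose and 5 were not called, with a median of -0.89, and 16 to 19 were called lower without 1 library. The 17 were 73.9%, against 18.7% of all tested genes, and the 1 was 4.35%, against 7.24%. With no filter 20 of the 32 were called lower and 0 higher. The 4 with the smallest p were Vim (-1.28 ± 0.17), the proteoglycan gene Bgn (-1.14 ± 0.16), the AP-1 subunit gene Junb (-0.88 ± 0.15) and the collagen chain gene Col1a2 (-1.47 ± 0.25). Junb averaged 32.7 ± 4.99 FPKM in limonin and 61.6 ± 14.7 FPKM in MCD livers. The gene that rose was Fn1, fibronectin, which hepatocytes also secrete into plasma (0.70 ± 0.18). Ski, Klf10, Cdkn1a and Tpm1 were among those not called. Pmepa1, another target, was under the filter, at 0.539 ± 0.196 FPKM in limonin and 1.87 ± 0.939 FPKM in MCD livers. Fn1 and Pmepa1 were named after their values were seen. Acta2 stands both on this list and among the stellate cell markers below, and Bambi, Smad7 and Ski each stand on another list described here.

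Beyond Ccn1 and Ccn2, 26 further CCN genes and genes of the YAP, TAZ and TEAD response were listed. Of these 14 were tested, 4 fell (28.6%, against 18.7% of all tested genes) and 10 were not called, with a median of -0.09, and 4 to 5 were called lower without 1 library. With no filter 8 of the 26 were called lower, against 5.68% of all genes. Ccn5, a further CCN gene that lacks the C-terminal domain of its relatives, averaged 0.337 ± 0.199 FPKM in limonin and 1.40 ± 0.325 FPKM in MCD livers (-0.84 ± 0.12), and it met the filter through the MCD livers alone. In the unfiltered fit its adjusted p was 0.0131 by limma. Igfbp3, a binding protein of insulin-like growth factors, fell by 0.81 ± 0.16, the receptor kinase gene Axl by 0.89 ± 0.18, and the matrix protein gene Ccdc80 by 1.06 ± 0.22. The feedback genes Amotl2 (-0.03 ± 0.11) and Lats2 (0.01 ± 0.10), which respond to YAP in many cell types, were not called and were named after their values were seen. Ankrd1, under the filter, was at 0.373 ± 0.229 FPKM in limonin and 1.47 ± 0.613 FPKM in MCD livers. Ccn3, Ccn4 and Ccn6 were under 1 FPKM in every library.

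Of 16 Hippo pathway and TEAD genes 11 were tested, 1 fell and 10 were not called, with a median of 0.04. The 1 that fell was 9.09%, under the 18.7% of all tested genes. The scaffold gene Frmd6 fell by 0.42 ± 0.13, and this call was lost without limonin 6, MCD 1 or MCD 2. Frmd6 ran from 0.538 to 1.15 FPKM in limonin and from 1.01 to 2.18 FPKM in MCD livers. It met the filter mainly through the MCD livers and was not called in the unfiltered fit (adjusted p = 0.0685 by limma). Yap1 averaged 4.86 ± 0.868 FPKM in limonin and 3.88 ± 0.361 FPKM in MCD livers (adjusted p = 0.116 by limma). Tead3 (-0.26 ± 0.09, adjusted p = 0.0501) and the kinase gene Stk4 (-0.17 ± 0.10, adjusted p = 0.222) were not called either. Genes called lower numbered 0 to 2 over the fits without 1 library, with 2 without limonin 1, limonin 3 or MCD 5. Without limonin 5, and after median-ratio scaling, 1 was called higher. With no filter 1 of the 16 was called lower, against 5.68% of all genes. This was Tead2, at 0.267 ± 0.0658 FPKM in limonin and 0.754 ± 0.211 FPKM in MCD livers (adjusted p = 0.0197 by limma). Tead2 was under 1 FPKM in every library and was named after its values were seen.

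In the related BMP and activin branch, 19 of 34 listed genes were tested, 9 fell, 1 rose and 9 were not called, with a median of -0.37. Those that fell were 47.4% and the 1 that rose 5.26%, against 18.7% and 7.24% of all tested genes. Gdf10, a ligand of this superfamily, averaged 2.81 ± 0.360 FPKM in limonin and 5.49 ± 1.05 FPKM in MCD livers (-0.76 ± 0.12). Gdf2, which encodes the stellate cell ligand BMP9, fell by 0.74 ± 0.13, the follistatin-like gene Fstl1 by 1.23 ± 0.23, and Id3, a direct target of BMP-activated Smads, by 1.0 ± 0.19. No gene of the list was called higher without limonin 2, limonin 4, MCD 1, MCD 2 or MCD 3. Without MCD 1 or MCD 2, 5 genes were called lower, and after median-ratio scaling 6 were. With no filter 9 were called lower and 0 higher.

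**Figure D4:**
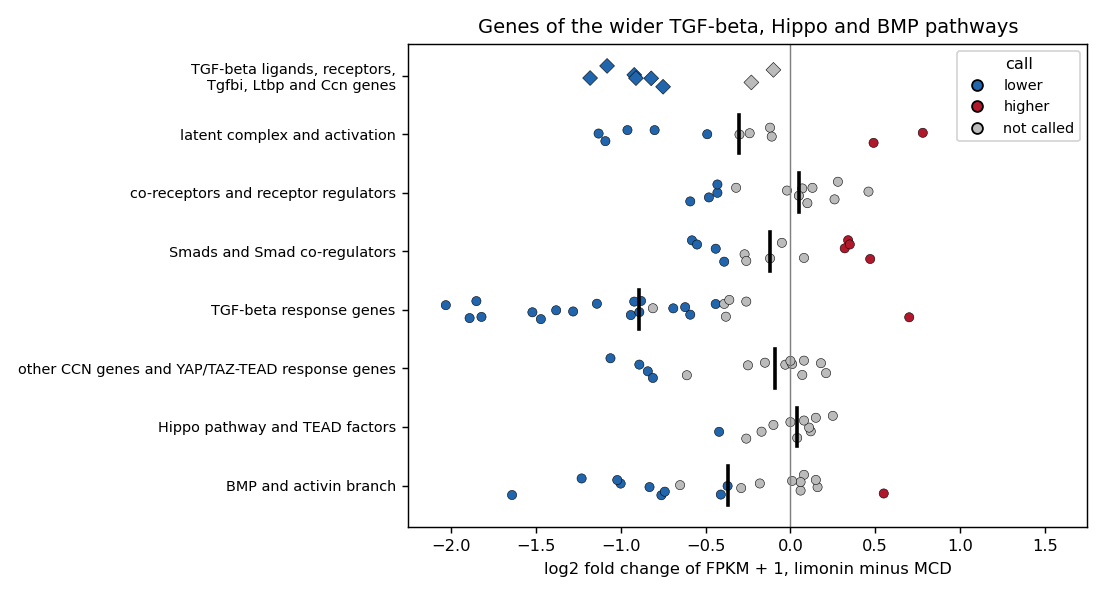
Log2 fold change of FPKM + 1, limonin minus MCD, of each tested gene, 1 row per list, with points spread vertically to separate them. Blue genes were called lower, red higher and grey not called, black bars are list medians, and diamonds in the top row are the 8 tested genes of the TGF-beta and CCN set; the response genes sit farthest left, with a median of -0.89.

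Marker genes of several liver cell types differed in the same direction as Tgfb1, Tgfb3 and the CCN genes, and in whole liver RNA fewer cells of a type and less RNA per cell cannot be told apart. Of 13 tested stellate cell and fibroblast markers 10 fell (7 to 10 without 1 library, and 5 of 14 with no filter), and their summed level ran from 79.4 to 109 FPKM in limonin and from 119 to 184 FPKM in MCD livers. Desmin (Des) fell by 0.74 ± 0.12 and Pdgfrb by 0.96 ± 0.17. The 3 markers not called were Lrat (-0.34 ± 0.16), Reln (-0.07 ± 0.11) and Vipr1 (-0.12 ± 0.12). Of 11 tested macrophage markers 5 fell, with sums from 105 to 193 FPKM in limonin and from 174 to 732 FPKM in MCD livers. The 5 were Cd68, Csf1r, Ctss, Lyz2 and Trem2. The 6 not called were Vsig4 (0.01 ± 0.35), Clec4f (-0.20 ± 0.37), Cd5l (-0.29 ± 0.41), Adgre1 (-0.38 ± 0.24), Marco (-0.73 ± 0.51) and Gpnmb (-1.79 ± 0.60). With no filter 2 macrophage markers were called lower. Without MCD 2, 1 was, and 3 were without limonin 2, limonin 4 or limonin 6. Of 7 bile duct markers 6 fell (4 to 6 without 1 library), with sums from 35.7 to 103 FPKM in limonin and from 92.7 to 471 FPKM in MCD livers. The shares that fell were 76.9% of stellate, 45.5% of macrophage and 85.7% of bile duct markers tested, against 18.7% of all tested genes.

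Endothelial markers did not follow this direction as a whole. Of 12 tested, Stab1 fell, Kdr rose and 10 were not called, with sums from 44.4 to 63.9 FPKM in limonin and from 39.4 to 71.4 FPKM in MCD livers. Each direction held 8.33%, against 18.7% called lower and 7.24% called higher over all tested genes. An endothelial marker was called higher in 3 of the 11 fits without 1 library and none was with no filter. Of 12 hepatocyte markers 5 rose (3 to 5 without 1 library, with 3 without limonin 4, MCD 1 or MCD 2) and 7 were not called, with sums from 34600 to 51200 FPKM in limonin and from 32900 to 40600 FPKM in MCD livers. The 5 that rose were 41.7%, against 7.24% of all tested genes. Without limonin 4 and without limonin 5, 1 and 2 hepatocyte markers were called lower, and with no filter 3 were called higher. Platelets carry much TGF-beta protein, and of 8 platelet markers only Pf4 was tested (-1.26 ± 0.21). Gp5, Gp9, Ppbp, Gp1bb and Treml1 were under 1 FPKM in every library. Of 12 lymphocyte markers 4 were tested and 3 fell (2 to 3 without 1 library), with sums from 3.51 to 10.1 FPKM in limonin and from 8.59 to 16.7 FPKM in MCD livers. The 3 that fell were 75.0% of the 4, against 18.7% of all tested genes. Of these Cd79b, at 0.318 to 1.11 FPKM in limonin and 1.26 to 2.67 FPKM in MCD livers, met the filter mainly through the MCD livers. With no filter 2 of the 12 lymphocyte markers were called lower, against 5.68% of all genes. The part of these cell types in the values of the ligands and CCN genes was not tested.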

How the data were processed

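Poly(A) RNA of 11 liver samples was made into strand-marked libraries, per the labels' protocols. The tools listed are StringTie 1.3.4d, HISAT2 2.0.4 and cutadapt 1.9, with GRCh38 (human) as build although gene identifiers are of mouse, per the submitters' processing notes. No source used here says whether counting used strand. The authors deposited FPKM per gene and library, with a fold ratio of group means, its log2, a p-value and a q-value, per the file headers; no source used here names their test, and their q equalled the Benjamini-Hochberg adjustment of their p for all 31280 genes.

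FPKM were used as log2(FPKM + 1) in limma 3.58.1 (R 4.3.3; trend, robust, two-sided) on the 10489 genes that reached 1 FPKM in 5 or more libraries, with Benjamini-Hochberg adjustment over all of them at 0.05. FPKM hold no counts, so no count model or counting interval is given; fragment numbers are estimates from low FPKM values, searched for products of FPKM and kilobases between 0.04 and 0.08. Ratios within libraries were tested by exact permutation (two-sided; smallest p with 5 and 6 libraries 0.00216). The fit was tested on simulated data. Coordinates are from GENCODE M21 (GRCm38). Genes named are the 10, up to 4 per list with the smallest p, and 3 of like pattern per called gene, leaving out predicted genes. Single cell type markers given with values, and Tgfbr3, Smad3, Smad4, Itgav, Itgb1, Itgb5, Ski, Klf10, Cdkn1a, Tpm1, Plau, Lrrc32 and Ankrd1, were chosen after their values were seen. The genes and lists were chosen with earlier results of these data known. Lists were described by counts, without a list test. The values of some listed genes are not reported here.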

Additional observations from a re-analysis of the deposited data

How the results depend on the processing

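Over all alternatives of the 10 genes' log2 fold changes, 222 kept their direction and side of the threshold, 1 lost its call and 1 turned its sign. Calls were gained 4 times for Tgfb2 and 2 times for Ltbp1 (the authors' deposited q, smaller pseudocounts, or without MCD 4); their exact permutation p-values were not adjusted and are no calls. Tgfbr2, not called, was at 0.01, with the opposite sign, after quantile normalization (adjusted p = 0.962). Ccn1 lost its call with the replicate number as a block (adjusted p = 0.0705), where 5 of the 10 genes were called lower. The replicate numbers did not pair the libraries (correlations of deviations from -0.24 to 0.20). The number of the 10 genes called lower was 4 with a filter at 5 FPKM, where 4 were tested, 6 without any 1 library and 8 by the authors' deposited q. Over all genes the calls moved more. Genes called lower numbered 1957, but 900 at 5 FPKM, 1112 at equal summed FPKM, 893 with the block and 1080 to 2134 without 1 library (1080 without MCD 2). Genes called higher numbered 759, but 412 with no filter, 1470 after median-ratio scaling, 1813 after quantile normalization, 363 with the block, 1347 without limonin 5 and 6, 486 without MCD 4 and 5, 2682 by the authors' deposited q and 328 to 1097 without 1 library (328 without MCD 2, 474 without MCD 1). Higher calls were 27.9% of all calls with no rescaling, 49.6% at equal summed FPKM, 52.9% with quantile normalization and 48.1% with median ratios, with median log2 fold changes of -0.069, 0.03, 0.03 and 0.011. The log2 ratio of Ltbp1 to Ltbp4 differed by 0.28 and 0.18 with pseudocounts of 0.1 and 0.01 and by 0.62 with the block, losing its call each time; 5 pairs cannot give an exact p under 0.0625. Tgfb2 to Tgfb1 differed by 0.46, and by -0.08 and -0.55 with the smaller pseudocounts. Without 1 library it ran from 0.34 to 0.56, and was called without limonin 5, MCD 1 or MCD 4; Ltbp1 to Ltbp4 ran from 0.47 to 0.63 and Ccn2 to Ccn1 from -0.29 to 0.02. Ccn2 to Ccn1 differed by -0.10, and by 0.01 without limonin 3 and 0.02 without MCD 5. Apart from the pseudocounts, the causes were not tested.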
